A study of Mus musculus castaneus and Mus musculus domesticus with 13 samples.

Results

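The 10 genes described here encode the core transcription factors and RNA-binding proteins of mouse pluripotent cells, and they were taken from the deposited count table by their symbols. All 10 were found among its 21706 genes: the transcription factors and chromatin-bound factors Pou5f1, Sox2, Nanog, Sall4, Utf1, Zfp296 and Zscan10, and the RNA-binding factors Lin28a, L1td1 and Trim71. Poly(A) RNA was sequenced in 13 libraries. Somatic cell nuclear transfer ESC (ntESC) lines, made from nuclei of blood leukocytes put into B6D2F1 oocytes, gave 10 of them: 4 of CASP (CASP/1Nga; females F4 and F6, males M3 and M5), 4 of CAST (CAST/Ei; females F1 and F2, males M2 and M8) and 2 of B6D2F1 (female F2, male M3). CASP and CAST are wild-derived strains of Mus musculus castaneus, and B6D2F1 is the F1 hybrid of the laboratory strains C57BL/6NCrSlc and DBA/2CrSlc. The other libraries came from an ESC line of a fertilized B6D2F1 embryo, from MEF (embryonic fibroblasts, B6D2F1) and from TTF (fibroblasts of a CAST tail tip), 1 library each and labelled WT, with no sex or age given. The ntESC lines were kept with LIF and 2 inhibitors (2i) on mitomycin-treated C57BL/6NCrSlc feeder fibroblasts, and feeders were reduced by plating before RNA was taken. Each library is 1 line or culture and each line 1 clone, so p-values measure the spread between clones.

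In pluripotent cells Oct3/4 (the product of Pou5f1), Sox2 and Nanog bind shared enhancers, including their own, and keep the genes of the undifferentiated state on. Sall4 works with Oct3/4 and binds the NuRD complex, Utf1 sits on chromatin at developmental genes, and Zfp296 and Zscan10 are zinc finger proteins of undifferentiated cells. Lin28a binds the precursors of let-7 microRNAs and blocks their maturation, Trim71 is the mammalian form of LIN-41, first known as a let-7 target in Caenorhabditis elegans, and L1td1 is an RNA-binding protein derived from a LINE-1 retrotransposon.

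The transcripts of the 10 genes were searched for let-7 seed matches. The match (bases 2 to 8 of the microRNA pair with CTACCTC) was searched on the sense strand of 16259 annotated 3′UTRs of GENCODE M21 (GRCm38), overlaps allowed. It occurred in 8.94% of them, and at least 2 matches in 1.09%. Trim71 held 4 matches in a 3′UTR of 5512 bases, Lin28a held 2 in 2775 bases and Sall4 held 1 in 1697 bases. Among 3′UTRs of 0.5 to 2 times the length, 23.5% had a match for Trim71, 15.7% for Lin28a and 11.3% for Sall4. The other 7 genes had none in these windows. All 7 matches were followed by an A, as were 32.4% of the 1678 matches in all 3′UTRs. They are shown because they are the letters by which 2 of the RNA-binding factors and Sall4 differ from the other 7 genes, with the match in capitals and the bases around it in lower case, in windows of 29 bases.
Lin28a site 1: agcctgttgaaCTACCTCatttttgccga
Lin28a site 2: tcgccacaaacCTACCTCactgtgttgaa
Trim71 site 1: ttgcctaagtcCTACCTCagcttaaattt
Trim71 site 2: ataatttctatCTACCTCaactctttgca
Trim71 site 3: gtatggattttCTACCTCaattttggcaa
Trim71 site 4: caaaaagttgtCTACCTCacgtcggcacc
Sall4 site 1: ctttaatttatCTACCTCaattatcttta
The matches of Lin28a lie on the minus strand at chr4:134005190-134005196 and chr4:134004552-134004558. Those of Trim71 lie at chr9:114512473-114512479, chr9:114512377-114512383, chr9:114509048-114509054 and chr9:114509022-114509028, also on the minus strand, and that of Sall4 at chr2:168748941-168748947 on the minus strand. A match is a run of letters and no measured site, and let-7 itself was not measured in these libraries.

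Each library held 33395162 to 49968894 counts. Levels are given as CPM, the count of a gene scaled to a common library total with TMM factors over all 13 libraries, on which 3 counts equal 0.0573 to 0.0926 CPM. Reads of all strains were aligned to GRCm38, a C57BL/6J genome. Alignment and expression therefore cannot be told apart in comparisons of castaneus with B6D2F1 lines. The same holds for CASP against CAST lines, which are separate strains. Strand use in counting is not stated in the sources used here, and Gemin7, which overlaps Zfp296 on the opposite strand, had 10.4 to 27.9 CPM over the ntESC lines. Sox2ot, which overlaps Sox2 on the same strand, had 3.48 to 17.8 CPM. The pseudogene Nanog-ps1 held 1 to 18 counts per ntESC library. As bulk RNA was measured, fewer cells of a type and less RNA per cell cannot be told apart. The pan-leukocyte gene Ptprc was at most 0.464 CPM in any ntESC line and 0.404 CPM in the ESC library. Such levels do not check the type of the donor cell. Summed over 12 fibroblast markers, the CASP lines stood at 1219 to 1642 CPM, the CAST lines at 1759 to 2122 CPM and the B6D2F1 ntESC lines at 2128 to 2189 CPM, none of the markers being at 0 in every line of a group. Fn1, for fibronectin, made up most of these sums (1092 to 1293 CPM in CASP, 1353 to 1923 CPM in CAST and 2024 to 2091 CPM in B6D2F1 lines). Most other markers of the list ran the other way: the median log2 fold change of the 12 over B6D2F1 lines was 1.14 for CASP and 1.18 for CAST lines. Pdgfrb was called higher in both (2.14, adjusted p = 0.000158, and 1.15, adjusted p = 0.00612), as were Col5a1 in CASP (1.12, adjusted p = 0.0480) and Col6a1 and Thy1 in CAST lines (2.70, adjusted p = 0.00793, and 2.101, adjusted p = 0.00202). Markers of trophoblast and primitive endoderm (11 genes) summed to 81.9 to 160.4 CPM in CASP, 42.9 to 59.3 CPM in CAST and 19.6 to 22.1 CPM in B6D2F1 lines, with 1, 0 and 1 of them at 0. Dab2 led the sums of CASP and CAST lines (means of 80.5 and 28.8 CPM, against 2.33 CPM in B6D2F1 lines). It was also at 107 CPM in MEF and 276 CPM in TTF. The medians of the 10 markers tested were 0.73 for CASP and 0.42 for CAST over B6D2F1 lines. In the order CASP, CAST and B6D2F1, neural progenitor and glial markers (14 genes) summed to 101 to 158 CPM, 77.5 to 87.1 CPM and 97.3 to 106 CPM. Leukocyte markers (10 genes) summed to 18.5 to 32.8 CPM, 47.4 to 63.2 CPM and 67.6 to 75.7 CPM in that order. The leukocyte sums were mostly Laptm5 (means of 16.7, 45.9 and 65.6 CPM). Of the 8 leukocyte markers tested over B6D2F1 lines, 1 was called higher and 2 lower in CASP lines. In CAST lines 1 was called higher and none lower. The higher one was Spi1 in CASP (2.42, adjusted p = 0.00104) and CAST lines (3.13, adjusted p = 0.000281). Its means were low (2.104, 3.43 and 0.385 CPM). Laptm5 and Coro1a (-1.26, adjusted p = 0.0244) were the lower ones in CASP lines. The list medians over B6D2F1 lines were 1.11 and 0.64. The part of other cells in the strain differences below was not tested.

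All 10 genes were higher in the 10 ntESC lines than in the 2 fibroblast libraries, where 23.6% of 20896 tested genes were higher and 28.2% lower (edgeR quasi-likelihood test, Benjamini-Hochberg adjusted p under 0.05). Pou5f1 (ENSMUSG00000024406, chromosome 17, 35506018 to 35510772 of GRCm38) had 826 ± 86.1 CPM in the ntESC lines and no count in MEF or TTF, which made it at least 10462-fold higher with 3 counts in the shallower fibroblast library as the floor. Nanog (ENSMUSG00000012396, chromosome 6, 122707489 to 122714633) had 495 ± 60.1 CPM, against 0.115 CPM in MEF and 0.342 CPM in TTF, a log2 fold change of 11.06 (SE 0.46, adjusted p = 9.07e-09, higher in 10 of 10 lines). Utf1, Zscan10, L1td1, Sall4 and Lin28a had log2 fold changes of 11.43, 11.35, 10.22, 9.27 and 8.97, with adjusted p of 3.72e-08 to 2.47e-05. The median of the 10 genes was 9.74, beside 0.07 over all genes tested. With library size only as the scaling, the median over all genes was 0.21 and all 10 genes were still higher.

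The 3 genes with the smallest log2 fold changes were Sox2, Trim71 and Zfp296. Sox2 (ENSMUSG00000074637, chromosome 3, 34650405 to 34652461), the HMG-box partner of Oct3/4, had 274 ± 77.9 CPM in the ntESC lines, against 16.9 CPM (886 counts) in MEF and no count in TTF, a log2 fold change of 4.97 (SE 1.34, adjusted p = 0.00753). Trim71 (ENSMUSG00000079259, chromosome 9, 114507133 to 114564369) had 392 ± 68.8 CPM, against 15.5 CPM in MEF and 0.158 CPM in TTF, a log2 fold change of 5.60 (SE 1.13, adjusted p = 0.00120). Zfp296 (ENSMUSG00000011267, chromosome 7, 19577287 to 19580656) had 52.4 ± 41.6 CPM, against 0.248 CPM in MEF and 2.58 CPM (98 counts) in TTF, a log2 fold change of 5.17 (SE 1.33, adjusted p = 0.00582). So MEF had reads counted for Sox2 and Trim71 and TTF had reads counted for Zfp296, each without reads of Pou5f1. The part of Gemin7, which overlaps Zfp296 on the opposite strand, in the Zfp296 reads of TTF was not tested. Without TTF the log2 fold change of Sox2 was 4.02, and without MEF no Sox2 count was left in the fibroblasts. Without MEF the log2 fold change of Trim71 was 11.20 and that of Zfp296 4.29, and without TTF they were 4.66 and 7.70, with the lone library assumed to vary like the ntESC lines. Sall4, Lin28a and L1td1 had 1.24, 0.687 and 0.611 CPM in MEF and no count in TTF. Summed over 14 neural progenitor and glial markers, MEF stood at 939 CPM and TTF at 8.19 CPM, led by Nes with 786 CPM and 4.11 CPM and Fabp7 with 91.0 CPM and 2.47 CPM. The part of such cells in the Sox2 and Trim71 reads of MEF was not tested.

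**Figure D1:**
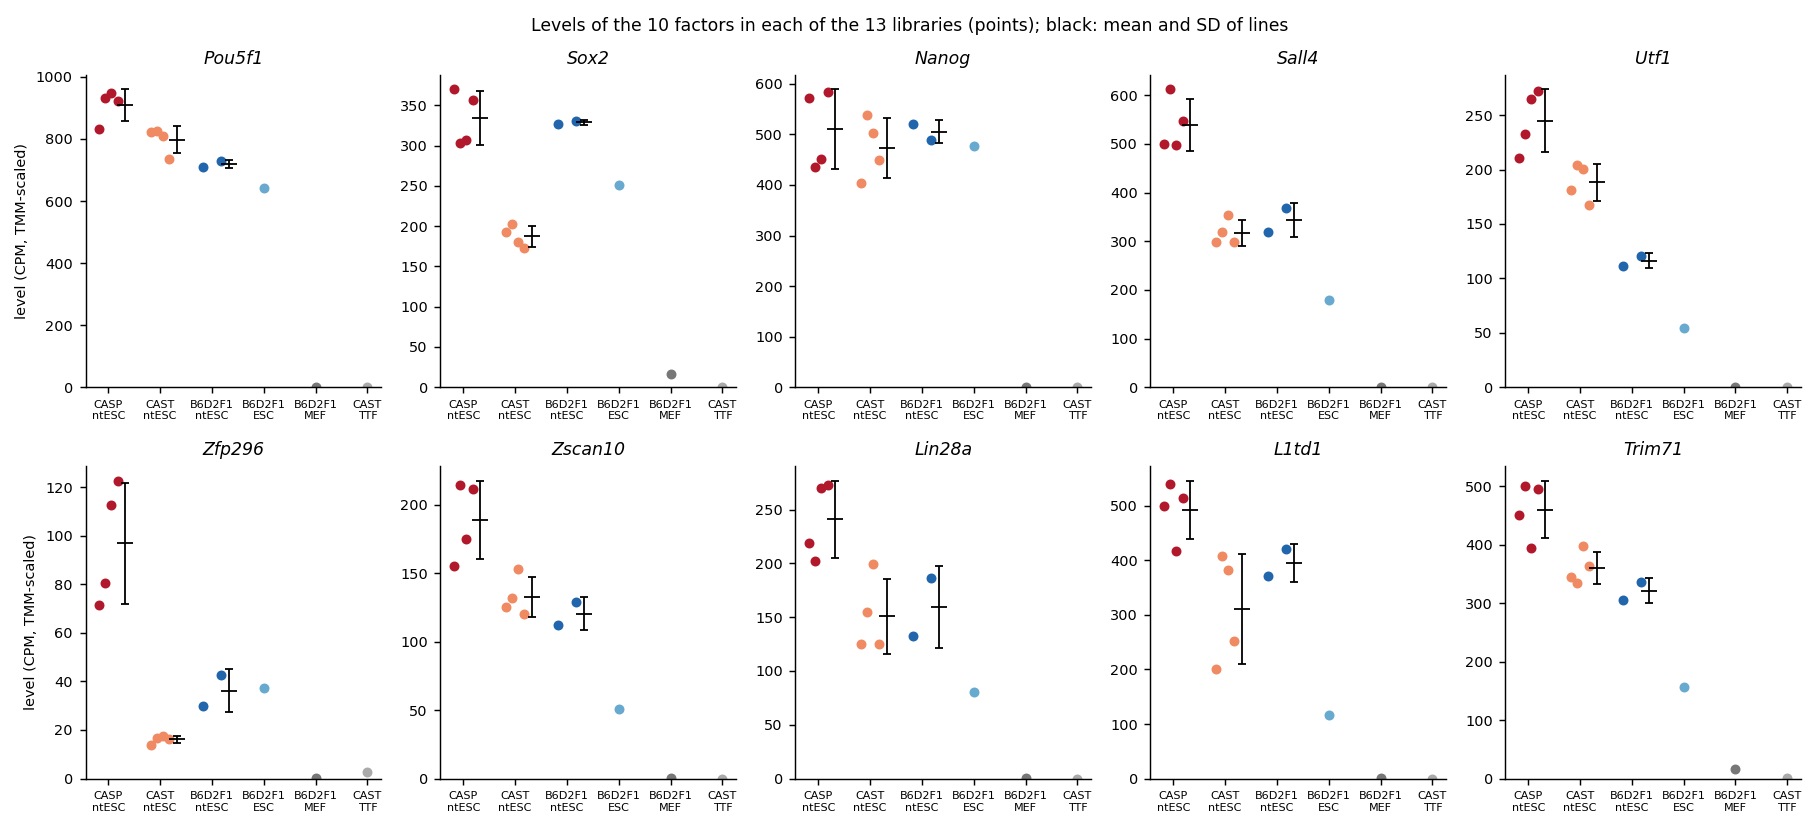
Level (CPM, TMM-scaled, linear axis from 0) of each of the 10 genes in the 13 libraries; points are libraries, grouped as CASP, CAST and B6D2F1 ntESC lines, B6D2F1 ESC, MEF and TTF, and black marks give the mean and SD of groups with more than 1 line. The CASP points lie above all CAST points in 8 genes, Nanog and Trim71 being the exceptions. The ESC point lies below all ntESC points in 7 genes, and the fibroblast points lie at 16.9 CPM or less. The shares of all genes with CASP above all CAST points, or ESC below all ntESC points, were not counted.

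Per length of transcript, the means over all 10 ntESC lines ran from Pou5f1 down to Zfp296. Divided by the length of 1 annotated transcript per gene, Pou5f1 stood at 607 ± 63.2 CPM per kb (range 521 to 696, n = 10 lines) and Nanog at 224 ± 27.2 CPM per kb (182 to 264), with no overlap. Utf1 followed with 160 ± 43.8, L1td1 with 136 ± 37.0, Sox2 with 133 ± 37.9, Sall4 with 81.1 ± 22.9, Zscan10 with 56.6 ± 13.6, Lin28a with 53.8 ± 15.7, Trim71 with 42.0 ± 7.37 and Zfp296 with 34.3 ± 27.2 CPM per kb. From Nanog downwards the ranges of each pair of neighbours overlapped. The order below Nanog was not the same in each strain: in CASP lines Zfp296 reached 46.7 to 80.2 CPM per kb, beside 42.2 to 53.6 for Trim71, and in B6D2F1 lines Utf1 had 90.8 and 98.6 CPM per kb, below L1td1 with 126 and 143 and Sox2 with 159 and 161. With the union of exons as the length, L1td1 and Sox2 changed places and Pou5f1, at 368 ± 38.3 CPM per kb, still did not overlap Nanog, at 221 ± 26.8 CPM per kb.

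Between strains of ntESC lines, 8 of the 10 genes were higher in CASP than in CAST lines and none lower, beside 15.2% of 20226 genes higher and 16.4% lower. Between CASP and B6D2F1 lines 7 were higher and none lower (17.9% of all genes higher, 17.5% lower), and between CAST and B6D2F1 lines 1 was higher and 2 lower (17.4% and 15.3%). The median log2 fold changes of the 10 genes were 0.58, 0.55 and -0.09, beside -0.02, 0.02 and 0.03 over all genes. At an unadjusted p under 0.05 stood 9, 7 and 3 of the 10 genes, beside 8541, 9162 and 8845 of all 20226 genes. The comparisons share lines, and B6D2F1 has 2 of them: without F2 the count between CASP and B6D2F1 was 2, Utf1 and Zfp296, and without CASP M5 or CAST M8 the count between CASP and CAST was 5. The reference gene Canx, for the chaperone calnexin, was itself lower in CASP lines, with 628 ± 27.2 CPM (n = 4) against 774 ± 57.2 CPM in CAST lines (n = 4; log2 fold change -0.31, SE 0.07, adjusted p = 0.00802) and 753 ± 42.0 CPM in B6D2F1 lines (n = 2; -0.28, SE 0.09, adjusted p = 0.0275).

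Of the 10 genes the strains differed most in Zfp296, a zinc finger protein that promotes reprogramming of somatic cells. It had 71.4, 80.4, 113 and 123 CPM in the CASP lines F4, F6, M3 and M5, against 13.98, 16.8, 17.4 and 16.3 CPM in the CAST lines F1, F2, M2 and M8 and 29.9 and 42.5 CPM in the B6D2F1 lines F2 and M3. The 3 strains did not overlap, with CASP highest and CAST lowest. The log2 fold change was 2.55 (SE 0.13, adjusted p = 5.82e-07) for CASP over CAST, 1.39 (SE 0.16, adjusted p = 9.3e-05) for CASP over B6D2F1 and -1.16 (SE 0.14, adjusted p = 0.000220) for CAST over B6D2F1. These calls held under every setting tried, including without the lines F4 and F6.

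Sox2 separated CAST from both other strains. It had 370, 303, 307 and 357 CPM in the CASP lines F4, F6, M3 and M5 and 193, 203, 180 and 173 CPM in the CAST lines F1, F2, M2 and M8, beside 327 and 331 CPM in the B6D2F1 lines F2 and M3. All CAST lines lay below all other lines. Sox2 was higher in CASP than in CAST lines by 0.83 on the log2 scale (SE 0.09, adjusted p = 7.05e-05) and lower in CAST than in B6D2F1 lines, with a log2 fold change of -0.83 (SE 0.10, adjusted p = 0.000225). CASP over B6D2F1 was 0.01 (95% interval -0.23 to 0.24, adjusted p = 0.968).

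Utf1 (ENSMUSG00000047751, chromosome 7, 139943789 to 139945112), a chromatin factor of undifferentiated ESCs, was in the order CASP, CAST, B6D2F1. It had 211, 233, 265 and 272 CPM in the CASP lines F4, F6, M3 and M5, 181, 204, 200.2 and 168 CPM in the CAST lines F1, F2, M2 and M8, and 111 and 121 CPM in the B6D2F1 lines F2 and M3, and no strain overlapped another. Its log2 fold change was 1.06 (SE 0.12, adjusted p = 0.000122) for CASP over B6D2F1, 0.69 (SE 0.12, adjusted p = 0.00186) for CAST over B6D2F1 and 0.37 (SE 0.10, adjusted p = 0.0148) for CASP over CAST. Of the 10 genes, Utf1 was the 1 called higher in CAST than in B6D2F1 lines. The call between CASP and CAST was lost without CASP M5 (adjusted p = 0.0521) or CAST M8 (adjusted p = 0.0502).

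Sall4 (ENSMUSG00000027547, chromosome 2, 168748332 to 168767943) had 500.3, 612, 497 and 547 CPM in the CASP lines F4, F6, M3 and M5, against 298, 318, 354 and 299 CPM in the CAST lines F1, F2, M2 and M8 and 320 and 369 CPM in the B6D2F1 lines F2 and M3. All CASP lines lay above all others. The log2 fold change was 0.76 (SE 0.10, adjusted p = 0.000262) for CASP over CAST and 0.63 (SE 0.12, adjusted p = 0.00271) for CASP over B6D2F1. Its highest line was F6. There the 930 measured genes of chromosome 2 lay above the mean of the other CASP lines by a median of 0.51 on the log2 scale. Over the chromosomes of the 10 genes, the other 69 such medians of chromosome and line lay between -0.19 and 0.10. The lowest, of chromosome 2 in CASP F4, was set against a mean that included F6. Without F6 the log2 fold changes of Sall4 were 0.67 (adjusted p = 0.000268) over CAST and 0.55 (adjusted p = 0.00215) over B6D2F1 lines. Without B6D2F1 F2 the call over B6D2F1 was lost (0.54, adjusted p = 0.0504).

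Zscan10 (ENSMUSG00000023902, chromosome 17, 23600856 to 23611019), a SCAN-domain zinc finger factor, had 155, 214, 175 and 211 CPM in the CASP lines F4, F6, M3 and M5, against 125, 132, 153 and 120.1 CPM in the CAST lines F1, F2, M2 and M8 and 112 and 129 CPM in the B6D2F1 lines F2 and M3. It was higher in CASP lines by 0.51 on the log2 scale over CAST (SE 0.12, adjusted p = 0.00946) and by 0.63 over B6D2F1 lines (SE 0.15, adjusted p = 0.00853). The lowest CASP line (155 CPM) was just above the highest CAST line (153 CPM). The second call was lost without B6D2F1 F2 (adjusted p = 0.0939).

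Pou5f1 and Nanog had smaller differences between strains. Pou5f1 had 832, 931, 948 and 922 CPM in the CASP lines F4, F6, M3 and M5, 824, 825, 809.7 and 735 CPM in the CAST lines F1, F2, M2 and M8, and 709.6 and 728 CPM in the B6D2F1 lines F2 and M3. The strains did not overlap, yet their steps were small: 0.32 on the log2 scale (SE 0.09, adjusted p = 0.0157) for CASP over B6D2F1, 0.18 (SE 0.07, 95% interval 0.03 to 0.34, adjusted p = 0.0722) for CASP over CAST and 0.14 (SE 0.09, adjusted p = 0.240) for CAST over B6D2F1. The first call was lost without either B6D2F1 line (adjusted p = 0.117 without F2 and 0.0776 without M3), and CASP over CAST passed without CASP F4 (0.24, adjusted p = 0.0275). Nanog had 572, 435, 451 and 584 CPM in the CASP lines F4, F6, M3 and M5, 403, 538, 502 and 450.2 CPM in the CAST lines F1, F2, M2 and M8, and 521 and 489 CPM in the B6D2F1 lines F2 and M3. The ranges overlapped throughout and no strain comparison of Nanog passed the threshold. Its intervals were -0.17 to 0.38 for CASP over CAST, -0.34 to 0.33 for CASP over B6D2F1 and -0.44 to 0.23 for CAST over B6D2F1, which leave room for differences of these sizes.

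The RNA-binding factors were all higher in CASP than in CAST lines. Lin28a (ENSMUSG00000050966, chromosome 4, 134003330 to 134018841) had 219, 202, 270.5 and 273 CPM in the CASP lines F4, F6, M3 and M5, against 125, 155, 199 and 125 CPM in the CAST lines F1, F2, M2 and M8 and 132 and 186 CPM in the B6D2F1 lines F2 and M3. CASP lay above both other strains, by 0.66 on the log2 scale over CAST (SE 0.14, adjusted p = 0.00460) and by 0.59 over B6D2F1 lines (SE 0.17, adjusted p = 0.0223). The second call was lost without either B6D2F1 line (adjusted p = 0.188 without F2 and 0.0772 without M3), without F4 and F6 together (0.0569) and without sex as a covariate (0.0565).

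L1td1 (ENSMUSG00000087166, chromosome 4, 98726734 to 98738480) had 500.4, 539, 417 and 515 CPM in the CASP lines F4, F6, M3 and M5, against 201, 408, 383 and 251 CPM in the CAST lines F1, F2, M2 and M8 and 371 and 420.1 CPM in the B6D2F1 lines F2 and M3. The CAST lines fell into a lower pair, F1 and M8, and a higher pair, F2 and M2, which is 1 female and 1 male line each. CASP over CAST was 0.66 (SE 0.21, adjusted p = 0.0322), a call lost without CASP F4 (adjusted p = 0.0558), CASP F6 (0.0636), CASP M5 (0.0812) or CAST M8 (0.0957), and without F4 and F6 together (0.226). CASP over B6D2F1 was 0.30 (SE 0.25, adjusted p = 0.386).

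Trim71 had 450.3, 500.3, 394 and 495 CPM in the CASP lines F4, F6, M3 and M5, against 345, 335, 398 and 364 CPM in the CAST lines F1, F2, M2 and M8 and 306 and 336 CPM in the B6D2F1 lines F2 and M3. CASP M3 fell within the range of the CAST lines. The log2 fold change was 0.51 (SE 0.12, adjusted p = 0.00792) over B6D2F1 and 0.35 (SE 0.09, adjusted p = 0.0178) over CAST lines. The CAST call was lost without CASP M5 (adjusted p = 0.0633), CAST F2 (0.0564), CAST M8 (0.0515) or both F4 and F6 (0.23, adjusted p = 0.176), and the B6D2F1 call without B6D2F1 F2 (0.0844).

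**Figure D2:**
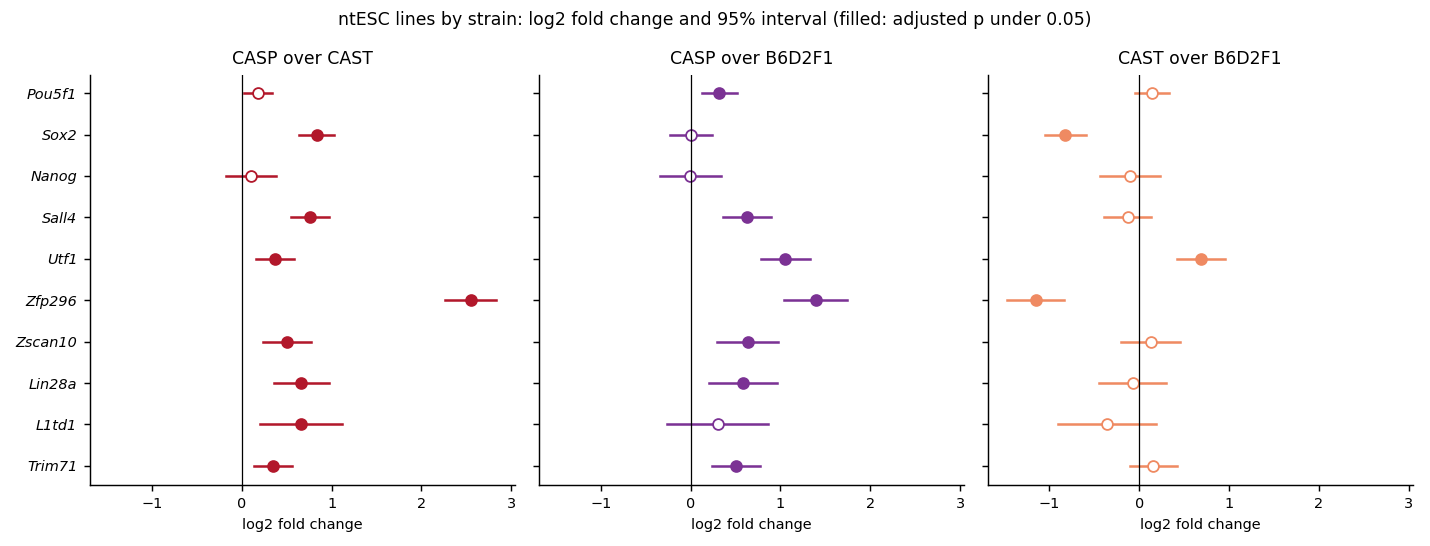
Log2 fold change (x axis) of each of the 10 genes (rows) between strains of ntESC lines, CASP over CAST, CASP over B6D2F1 and CAST over B6D2F1, with the 95% interval of the edgeR fit as a line and filled points for adjusted p under 0.05. Zfp296 ranges from -1.16 to 2.55 over the panels, and the points of Nanog lie between -0.11 and 0.10.

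Female and male lines did not differ in any of the 10 genes past the threshold, where 0.00494% of 20226 genes (1 gene) were higher and 0.0445% (9 genes) lower in females (1199 genes had an unadjusted p under 0.05, and DESeq2 and limma-trend also called none of the 10). Zfp296 and Lin28a had an unadjusted p under 0.05. Zfp296 was at 71.4 and 80.4 CPM in the female CASP lines, against 113 and 123 CPM in the male CASP lines, with a log2 fold change over all lines of -0.42 (SE 0.11, adjusted p = 0.525 by edgeR). Lin28a had a log2 fold change of -0.34 (SE 0.12, adjusted p = 0.722 by edgeR). The difference of the sex effect between CASP and CAST lines passed for none of the 10 genes (0.00485% of 20634 genes positive and 0.0145% negative, 937 genes at an unadjusted p under 0.05). That of Zfp296 was -0.50 on the log2 scale (SE 0.21, adjusted p = 0.961 by edgeR), at an unadjusted p under 0.05.

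The spread between lines of 1 strain differed between the genes. Pooled over strains, the SD on the log2 scale was 0.077 for Pou5f1, 0.12 for Sox2, 0.13 for Sall4 and Trim71, 0.14 for Utf1, 0.19 for Zscan10 and Nanog, 0.29 for Lin28a, 0.30 for Zfp296 and 0.34 for L1td1. Over all 4450 genes of at least 50 CPM the median was 0.15, and 9.08% of them had a smaller SD than Pou5f1 and 94.7% a smaller one than L1td1. The highest CAST line had 2.03 times the L1td1 level of the lowest, the widest such gap of any gene and strain here, while for Pou5f1 the gap was at most 1.14 times. Of the variance over the 10 lines, the share between strains was 95.5% for Zfp296, 94.5% for Sox2, 91.4% for Sall4, 91.2% for Utf1, 79.9% for Pou5f1, 78.0% for Trim71, 75.6% for Zscan10, 65.1% for Lin28a, 56.0% for L1td1 and 9.16% for Nanog, beside a median of 65.3% over the 4450 genes. Nanog and Zscan10 thus had the same SD between lines of a strain, and the strain share of Nanog was the lowest of the 10.

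**Figure D3:**
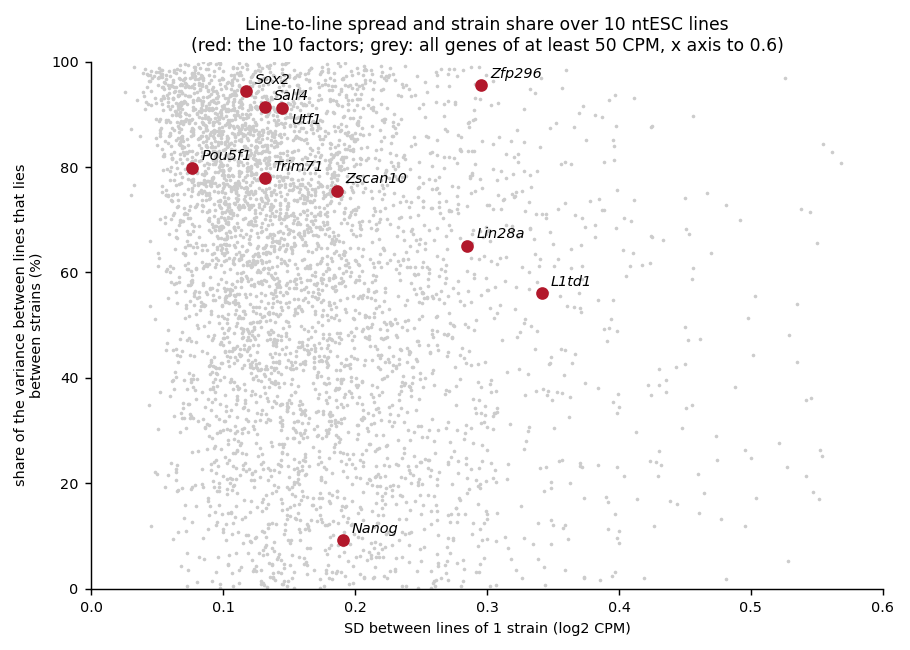
SD between ntESC lines of 1 strain (x axis, log2 CPM, pooled over 3 strains) and the share of the variance over 10 lines that lies between strains (y axis, percent), with the 10 genes in red and all genes of at least 50 CPM in grey. Zfp296 sits at the top (95.5%) with an SD of 0.30, Pou5f1 at the left with an SD of 0.077, and Nanog near the bottom (9.16%).

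The genes did not peak in the same line. In CASP, F6 and M5 were each highest for 4 genes, F6 for Sall4, Zscan10, L1td1 and Trim71 and M5 for Nanog, Utf1, Zfp296 and Lin28a. In CAST, F2 was highest for 5 genes (Pou5f1, Sox2, Nanog, Utf1 and L1td1) and M2 for the other 5. Of the B6D2F1 lines, M3 was higher than F2 for 9 genes and lower for Nanog.

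Ratios between the factors were taken from the counts of each library, so that scaling drops out. There were 14 ratios, each tested over all ways of assigning the 10 lines to the strains (two-sided exact permutation test, smallest p seen 0.000635) and adjusted over the 14. Sox2 stood to Pou5f1 as 0.444, 0.326, 0.324 and 0.387 in the CASP lines F4, F6, M3 and M5, 0.234, 0.246, 0.222 and 0.236 in the CAST lines F1, F2, M2 and M8, and 0.460 and 0.455 in the B6D2F1 lines F2 and M3. The strains did not overlap (exact p = 0.00127, adjusted p = 0.00356), and CAST lines had the least Sox2 per Oct3/4 transcript. Nanog stood to Sox2 as 1.43 to 1.64 in CASP, 2.09 to 2.79 in CAST and 1.48 to 1.60 in B6D2F1 lines (exact p = 0.00825, adjusted p = 0.0165), the CAST lines being above both.

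Of the 14 ratios Zfp296 to Pou5f1 differed most between CASP and CAST lines, from 0.0858 to 0.133 in CASP, 0.0170 to 0.0222 in CAST and 0.0421 to 0.0585 in B6D2F1 lines. It was 5.17 times higher in CASP than in CAST lines. Utf1 to Pou5f1 was 0.250 to 0.295 in CASP, 0.2201 to 0.247 in CAST and 0.157 to 0.166 in B6D2F1 lines, and Sall4 to Pou5f1 was 0.524 to 0.658, 0.362 to 0.437 and 0.451 to 0.507 in the same order. Each of these 3 had exact p = 0.000635 and adjusted p = 0.00222. The ratios of Nanog, Zscan10, Lin28a, L1td1 and Trim71 to Pou5f1 and those of L1td1 and Trim71 to Lin28a did not pass (adjusted p of 0.104 to 0.507). Against Canx, Pou5f1 was 1.26 to 1.57 in CASP, 0.937 to 1.14 in CAST and 0.906 to 1.01 in B6D2F1 lines (exact p = 0.00444, adjusted p = 0.0104) and Sox2 was 0.493 to 0.564, 0.221 to 0.269 and 0.417 to 0.457 (exact p = 0.000635, adjusted p = 0.00222), with Canx itself lower in CASP lines. Between CASP and CAST alone, 4 lines against 4 cannot give an exact p below 0.0286, and after adjustment none of the 14 passed (smallest adjusted p = 0.0571), although 7 had this smallest p.

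Over all 45 pairs of the 10 genes, the steadiest ratio was Zscan10 to Trim71, with an SD of 0.14 on the log2 scale over the 10 lines and a highest value 1.35 times the lowest. Sall4 to Zscan10 followed with 0.16 and Pou5f1 to Trim71 with 0.17. The least steady were those with Zfp296, up to 1.19 for Nanog to Zfp296, where the highest line was 8.03 times the lowest. These SDs are a description of the same 10 lines.

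**Figure D4:**
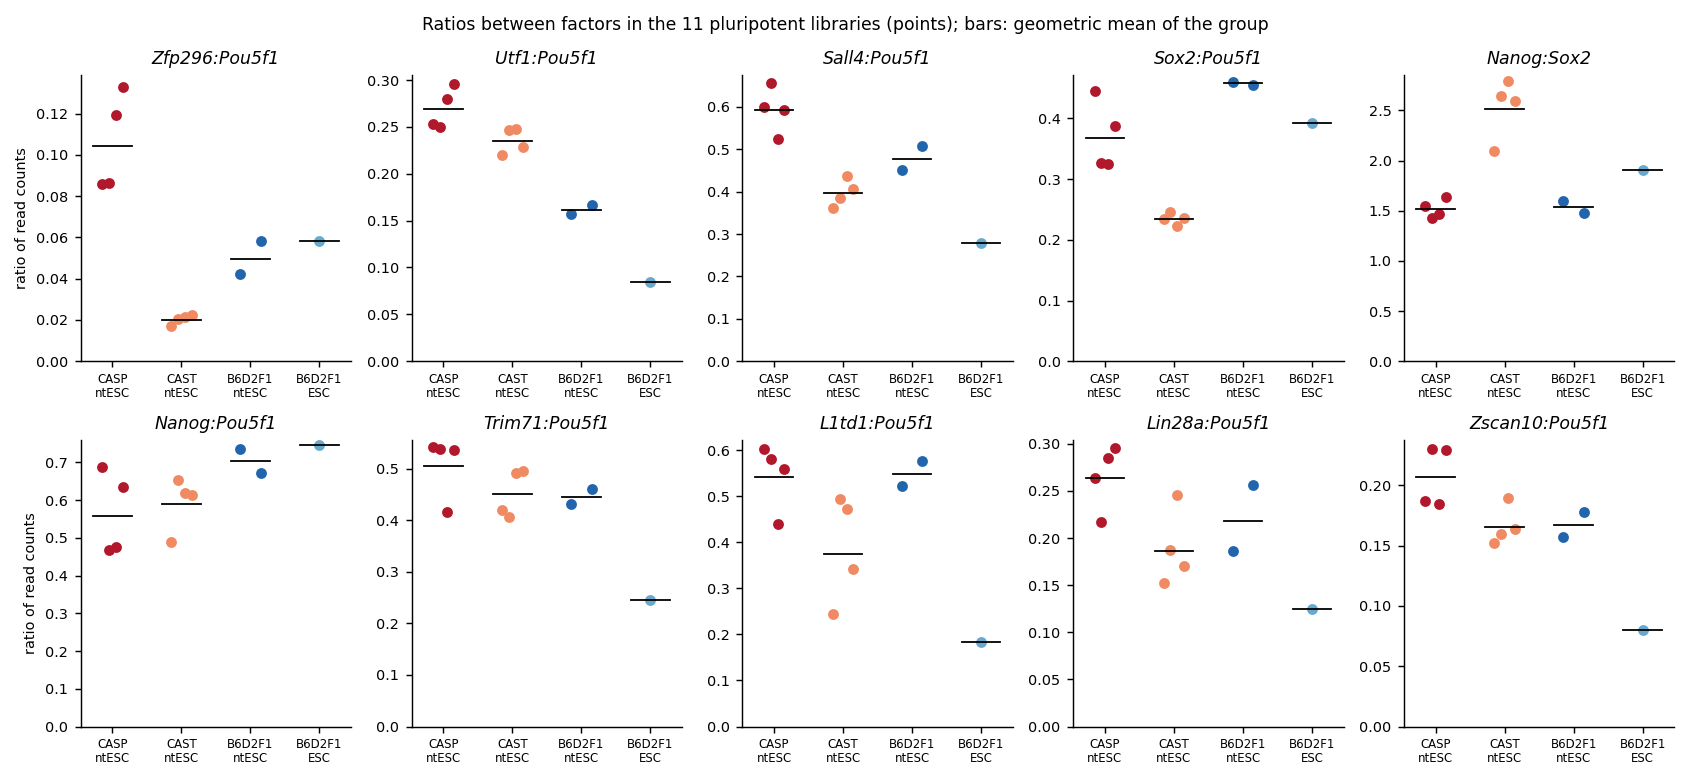
Ratio of read counts (linear axis from 0) for 10 pairs of genes in the 11 pluripotent libraries; points are libraries in the order CASP, CAST and B6D2F1 ntESC lines and B6D2F1 ESC, and bars give the geometric mean. The 4 CAST points lie below all others for Zfp296 to Pou5f1 and Sox2 to Pou5f1 and above all others for Nanog to Sox2, and the ESC point lies below all ntESC points for Utf1, Sall4, Trim71, L1td1, Lin28a and Zscan10 to Pou5f1.

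The fertilization-derived ESC library was set against the B6D2F1 ntESC lines. With 1 ESC library there is no replicate check, so only values are given. L1td1 had 371 and 420.1 CPM in the ntESC lines F2 and M3, against 117 CPM in the ESC library, the widest gap (3.38 times). Zscan10 had 112 and 129 CPM against 51.1 CPM, Utf1 111 and 121 CPM against 54.3 CPM, Trim71 306 and 336 CPM against 157 CPM, Lin28a 132 and 186 CPM against 80.1 CPM, and Sall4 320 and 369 CPM against 179 CPM. These 6 genes were more than 1.5-fold higher in the ntESC lines, beside 16.3% of 11642 genes, with 17.5% of genes as far lower. Sox2 had 327 and 331 CPM against 251 CPM, Pou5f1 709.6 and 728 CPM against 641 CPM, Nanog 521 and 489 CPM against 478 CPM, and Zfp296 29.9 and 42.5 CPM against 37.4 CPM. So the ESC library lay below all 10 ntESC lines for 7 genes, the exceptions being Sox2, Nanog and Zfp296. All 3 RNA-binding factors were among the 7. The share of all genes with the ESC library below all 10 lines was not counted. The median log2 difference was 0.96 for the 10 genes and 0.07 over all genes. Canx was at 783 and 723 CPM in the ntESC lines, against 885 CPM in the ESC library, the 12 fibroblast markers summed to 2128 and 2189 CPM against 2647 CPM, and the 10 leukocyte markers, led by Laptm5, to 67.6 and 75.7 CPM against 151 CPM. The part of other cells, sex or passage in these gaps was not tested.

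Lists of related genes were counted in the same fits, in which 15.2% of all genes were higher and 16.4% lower for CASP over CAST, 17.9% and 17.5% for CASP over B6D2F1, and 17.4% and 15.3% for CAST over B6D2F1. Of 30 protein partners and cofactors of Oct3/4, Sox2 and Nanog, 14 were higher and 1 lower in CASP than in CAST lines, and between CAST and B6D2F1 lines none were higher and 14 lower, with medians of 0.29 and -0.32. Sall1, a relative of Sall4, had 145 ± 16.6 CPM in CASP lines, 38.1 ± 6.51 CPM in CAST lines and 118 ± 1.52 CPM in B6D2F1 lines, with a log2 fold change of 1.92 for CASP over CAST (SE 0.13, adjusted p = 3.74e-06). Like Sox2 it was lowest in CAST lines. Rest, a repressor of neuronal genes, stood at 592 ± 57.1, 282 ± 30.1 and 355 ± 47.6 CPM, with 1.06 for CASP over CAST (SE 0.10, adjusted p = 3.73e-05). Between CASP and B6D2F1 lines 3 of the 30 were higher and 5 lower, no more than the 17.9% and 17.5% of all genes. Nr0b1, which encodes the Oct3/4 partner Dax1, fell to 83.3 ± 10.4 CPM in CASP and 60.8 ± 9.81 CPM in CAST lines, against 144 ± 10.6 CPM in B6D2F1 lines. Against the fibroblasts 15 of the 30 were higher and 1 lower (23.6% and 28.2% of all genes).

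Of 18 other genes of the Lin28 and let-7 pathway, 4 were higher and none lower in CASP than in CAST lines (15.2% and 16.4% of all genes), 5 higher and 1 lower in CASP than in B6D2F1 lines (17.9% and 17.5%), and, for CAST over B6D2F1, 3 higher and none lower (17.4% and 15.3%). The shares called higher were not far from those of all genes. Igf2bp1, which encodes an RNA-binding let-7 target, had 899 ± 81.8 CPM in CASP, 612 ± 39.6 CPM in CAST and 662 ± 11.9 CPM in B6D2F1 lines (CASP over CAST 0.55, SE 0.08, adjusted p = 0.000839). Hmga2, another let-7 target, had 114 ± 46.5 CPM in CASP and 97.1 ± 8.38 CPM in CAST lines, against 35.2 ± 4.58 CPM in B6D2F1 lines, and Lin28b, the relative of Lin28a, had 35.1 ± 7.52 and 39.1 ± 7.35 CPM, against 18.1 ± 0.725 CPM. Both were higher in CASP (1.67 and 0.94, adjusted p = 0.00154 and 0.01001) and in CAST (1.47 and 1.10, adjusted p = 0.00343 and 0.00505) than in B6D2F1 lines. Lin28b thus had another order over strains than Lin28a. Against the fibroblasts 6 of the 18 were higher and 3 lower (23.6% and 28.2% of all genes). Hmga2 was lower in the ntESC lines with 91.3 ± 41.0 CPM, against 860.0 CPM in MEF and 255 CPM in TTF.

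Of 17 family relatives, 4 were higher and 4 lower in CASP than in CAST lines (15.2% and 16.4% of all genes), 1 higher and 5 lower in CASP than in B6D2F1 lines (17.9% and 17.5%) and, for CAST over B6D2F1, 2 higher and 5 lower (17.4% and 15.3%). Sox21 had 17.8 ± 5.22, 2.70 ± 0.458 and 12.4 ± 0.415 CPM in CASP, CAST and B6D2F1 lines (CASP over CAST 2.72, SE 0.23, adjusted p = 1.80e-05), low in CAST like Sox2, while Sox3 had 2.46 ± 1.15, 7.40 ± 1.47 and 7.31 ± 1.84 CPM, low in CASP. Of 12 targets of Oct3/4 and Sox2, 5 were higher and 3 lower in CASP than in CAST lines, 4 higher and 5 lower in CASP than in B6D2F1 lines and, for CAST over B6D2F1, 1 higher and 6 lower, beside the same shares of all genes. Tdgf1, for the Nodal co-receptor Cripto, had 663 ± 75.4, 94.8 ± 23.4 and 667 ± 34.5 CPM, low in CAST (CASP over CAST 2.79, SE 0.17, adjusted p = 1.62e-06). Zfp42, for Rex1, had 585 ± 117, 195 ± 32.7 and 117 ± 1.45 CPM, and Fbxo15 had 49.3 ± 63.4, 349 ± 64.0 and 247 ± 2.70 CPM, low in CASP. The targets did not follow 1 order over strains: of these 3, Tdgf1 was lowest in CAST, Zfp42 in B6D2F1 and Fbxo15 in CASP lines.

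The genes with the nearest pattern over the 10 ntESC lines were found among 10284 others by the root mean square difference of centred log2(CPM + 1). For Pou5f1 they were Rpl15-ps3 (0.048) and Smad4 (0.049), for Nanog Ddx21 (0.081) and Commd8 (0.082), for Trim71 Mcm4 (0.071) and Baz1b (0.074), and for Zscan10 Slc39a14 (0.082) and Midn (0.083). Those of Sall4 were Mpdu1 (0.092) and Ctnnbl1 (0.093), of Sox2 Sars (0.10) and Wdr70 (0.11), of Utf1 Btrc (0.11) and Slc35g1 (0.11), of Lin28a Sirt1 (0.14) and Mllt6 (0.15), of L1td1 Zfp57 (0.14) and Tmem39b (0.14), and of Zfp296 Znf41-ps (0.25) and Dnah8 (0.29). Sars had 297 ± 50.8, 157 ± 14.7 and 307 ± 20.9 CPM in CASP, CAST and B6D2F1 lines, lowest in CAST like Sox2, and Znf41-ps had 95.1 ± 17.9, 18.6 ± 2.85 and 33.7 ± 5.64 CPM, that of Zfp296. A near pattern over 10 lines of 3 strains is shared by many genes and is given as a description.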

How the data were processed

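Per the submitters' processing notes, the authors used fastp 0.22.0, HISAT2 2.2.1 (GRCm38) and StringTie 2.1.7. The deposited counts are whole numbers per gene without normalization. A further deposited table has log2 values from the authors, equal to log2(count / size factor + 4), although the study's methods name CPM. Counts were fitted with edgeR 4.0.16 (TMM, filterByExpr, quasi-likelihood test, Benjamini-Hochberg over all genes tested, threshold 0.05): strain and sex over the 10 ntESC lines, ntESC lines against both fibroblast libraries, and a strain by sex fit. All 10 genes passed the filter in every fit. Errors are SDs unless given as SE. The 95% intervals come from the edgeR fits and include the spread between lines, and the floor of 3 counts covers counting error only. Ratios used counts + 0.5. Group calls against the 1 ESC library used a fold of 1.5 among genes of at least 5 CPM in either group, a rule added after the data were seen. Alternatives were RLE factors, library size only, no filter, DESeq2 1.42.0, limma-trend (limma 3.58.1) on the authors' log2 values, no sex covariate and leaving out libraries. The fits were run on simulated counts, in which all genes had the same spread and few genes changed. Such counts are simpler than these data and do not check the calls given here. The genes, lists and tests were chosen with earlier results of these data known. Besides all 10 genes and Canx, genes named from a list are among the 4 called genes with the largest absolute fold change in a comparison, and near patterns are the 2 closest genes of at least 5 CPM. Marker genes named beside a sum were chosen after their values were seen.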

Additional observations from a re-analysis of the deposited data

Results flagged for a closer look

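In groups of 4 lines, 48 sets of values (10 levels and 14 ratios in CASP and in CAST) were searched for a line far from the others, which chance alone gives in about 1 of 20. Of the 48 sets 1 was flagged, which is below that share. It was Trim71 to Pou5f1 in CASP M3, with a ratio of 0.416, against 0.537 to 0.541 in the other 3 CASP lines. In that line Trim71 was the lowest (394 CPM) and Pou5f1 the highest (948 CPM) of the CASP lines.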

How the results depend on the processing

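Among the genes described here, the counts called kept their size in every comparison, within 1.5 times. This held under other scaling, no filter, DESeq2, limma-trend and no sex covariate. Leaving out 1 library, the number of these genes higher in CASP than in B6D2F1 lines was 2 to 7 and in CASP than in CAST lines 5 to 8. Counts over all genes were less steady between female and male lines. There DESeq2 called 36 higher and 54 lower in females and limma-trend 0 and 8, where the main fit called 1 and 9. Uncalled values near 0 changed sign. Nanog, CASP over B6D2F1, became 0.0090 with RLE factors, 0.025 with library size only, 0.017 without a filter, 0.0091 with DESeq2, 0.017 with limma-trend, 0.048 without F4 and F6 and -0.080 to 0.075 without 1 line (above 0 without B6D2F1 F2, CASP F6 or CASP M3). Sox2, CASP over B6D2F1, was -0.043 to 0.088 without 1 line (below 0 without B6D2F1 F2, CASP F4 or CASP M5). Lin28a, CAST over B6D2F1, became 0.0044 with library size only and was -0.19 to 0.064 without 1 line (above 0 without B6D2F1 M3 or CAST M8). The cause was not tested. Of the ratios, Lin28a to Pou5f1 passed without CAST M2 (adjusted p = 0.0417 in place of 0.122). With 2 B6D2F1 lines and 1 library each of ESC, MEF and TTF, comparisons with these groups rest on few clones. No paired analysis was possible because the line numbers name separate clones.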
